A study of Homo sapiens with 12 samples.

Results

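The 10 genes described here are EGR1, FOS, JUN, JUNB, JUND, IER2, IER3, DUSP1, DUSP6 and SPRY2, immediate early genes and feedback regulators of mitogen-activated protein kinase (MAPK) signalling. They were chosen by name, with earlier results of these data known. All 10 were among the 58735 genes of the deposited count table, and all 10 were among the 15060 genes that passed the filter on low counts. The cells were OCI-AML2, an established acute myeloid leukaemia line that the series title places among KMT2A-rearranged leukaemias, and their total RNA was sequenced. Cells carried a lentiviral guide RNA, either sgLuc, aimed at luciferase and labelled wild type, or sgUTX_2 or sgUTX_4, both labelled UTX knockout. UTX is the histone H3 lysine 27 demethylase encoded by KDM6A. Each of the 3 guides was combined with DMSO, the vehicle, or with SGC0946 at 1 µM, which inhibits the histone H3 lysine 79 methyltransferase DOT1L, for 6 days, which gave 6 groups of 2 libraries. Nothing in the labels tells whether both libraries of a group stem from cultures kept apart, and p-values therefore reflect the scatter of these 12 libraries alone, which may be technical. On the genome EGR1 and DUSP1 lie on chromosome 5, JUNB, JUND and IER2 on 19, FOS on 14, JUN on 1, IER3 on 6, DUSP6 on 12 and SPRY2 on 13.

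Immediate early genes are transcribed within minutes of a growth factor, cytokine or stress signal, without new protein synthesis, because the factors that switch them on are already in the cell and are modified by kinases. EGR1 is a zinc finger transcription factor, and FOS and the JUN proteins pair to form the transcription factor AP-1. DUSP1 and DUSP6 remove phosphate from MAP kinases and SPRY2 acts on the pathway above ERK, so that their induction limits the signal that induced them. In myeloid cells EGR and AP-1 factors are also known for their part in monocyte and macrophage differentiation.

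The control regions right before the transcription start are shown for EGR1, DUSP1 and JUND, because these genes followed 3 different patterns and their windows held matches to binding sequences of the factors that induce immediate early genes. RefSeq gave a promoter for 9 of the 10 genes, IER3 being the one not matched, and each window is the 250 bases before the start on GRCh38.p14, written 5′ to 3′ on the strand of the gene with the matches in capitals.
EGR1, chr5:138465229-138465478, plus strand: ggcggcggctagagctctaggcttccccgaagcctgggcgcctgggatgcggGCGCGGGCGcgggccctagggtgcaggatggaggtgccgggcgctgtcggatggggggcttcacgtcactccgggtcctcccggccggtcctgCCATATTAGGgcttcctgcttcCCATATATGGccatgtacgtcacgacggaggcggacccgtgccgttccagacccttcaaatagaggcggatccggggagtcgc
DUSP1, chr5:172771196-172771445, minus strand: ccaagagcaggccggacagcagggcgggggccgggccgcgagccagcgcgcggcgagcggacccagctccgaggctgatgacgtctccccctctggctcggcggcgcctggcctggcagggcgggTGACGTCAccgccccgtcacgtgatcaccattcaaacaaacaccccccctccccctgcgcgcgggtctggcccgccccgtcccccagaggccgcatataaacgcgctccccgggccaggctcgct
JUND, chr19:18281623-18281872, minus strand: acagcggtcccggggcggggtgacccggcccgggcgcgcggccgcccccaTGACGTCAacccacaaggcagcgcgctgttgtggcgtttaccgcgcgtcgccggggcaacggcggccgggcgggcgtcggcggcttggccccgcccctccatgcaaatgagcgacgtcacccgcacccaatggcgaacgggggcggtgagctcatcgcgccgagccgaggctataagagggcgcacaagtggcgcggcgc

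Counting back from the start, the EGR1 window held 2 CArG boxes, the core of the serum response element bound by SRF, at -105 to -96 (CCATATTAGG) and at -83 to -74 (CCATATATGG), and an EGR site at -198 to -190 (GCGCGGGCG). The capitals in DUSP1, at -125 to -118, and in JUND, at -200 to -193, mark the cyclic AMP response element TGACGTCA. Both strands were searched for 4 motifs, and over the 35116 promoter windows of the same length in the table the shares with a match were 1.159% for the CArG box, 1.646% for TGACGTCA, 6.573% for the AP-1 site TGANTCA and 8.415% for the EGR site GCGNGGGCG. SPRY2 held 2 EGR sites, and no match to these letters was found in the windows of FOS, JUN, JUNB, IER2 and DUSP6. A match is a description of letters, and binding was not measured.

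Total counts ran from 15480493 to 23262141 per library. The share of counts on ribosomal protein genes was 17.8% and 19.0% in control cells with DMSO, 13.0% and 13.2% in control cells with SGC0946 and between 11.1% and 12.2% with the UTX guides. Scaling by library size alone in place of the trimmed mean of M-values (TMM) moved the median log2 fold change of all genes from -0.01 to 0.26 for sgUTX against sgLuc in DMSO and from 0.01 to 0.20 in SGC0946. With that scaling the share of called genes that were higher went from 47.1% to 66.7% in DMSO, from 48.6% to 65.0% in SGC0946, from 50.6% to 60.8% for SGC0946 in control cells and from 52.6% to 40.6% for the difference of the responses. KDM6A itself was lower with sgUTX_2 than with sgLuc in DMSO (log2 fold change -0.99) and higher with sgUTX_4 (0.67). A whole-gene count does not report on the edited site, and here the groups are named by their guides. Of 9 myeloid markers 8 reached 1 CPM, the count scaled to a common library total after TMM, CD68 being at 15 counts over the 12 libraries, while 4 of 5 erythroid markers were at 0 counts. The summed level of the myeloid markers was 1704 to 1841 CPM in control DMSO libraries, 1436 to 1792 in sgUTX DMSO libraries, 12124 to 12328 in control cells with SGC0946 and 4569 to 6544 in sgUTX cells with SGC0946. LYZ, which ran from 244 to 9446 CPM over the libraries, made up much of the highest sums. In the same order of groups, 5 lymphoid markers summed to 36.9 to 37.4, 16.8 to 21.98, 33.2 to 34.8 and 20.6 to 24.6 CPM, and 7 markers of adherent cells to 12.1 to 13.3, 2.23 to 3.56, 11.1 to 11.2 and 6.59 to 11.5 CPM. The myeloid sum was higher with SGC0946 in both genotypes, and with the inhibitor present it was lower with the UTX guides. The lymphoid sum was lower with the UTX guides in both treatments. The adherent sum was lower with the UTX guides in DMSO, rose with SGC0946 in sgUTX cells and overlapped between genotypes in SGC0946. Single genes weighed heavily in both. NKG7, at 15.8 to 33.1 CPM over the libraries, was the main part of the lymphoid sum. Among the adherent markers PDGFRB ran from 1.78 to 12.7 CPM and COL1A1 from 0.088 to 6.03. The part of these 3 sums in the results was not tested.

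EGR1 was several times higher in cells with a UTX guide and no inhibitor than in any other group. Its TMM-scaled level was 6.40 and 6.35 CPM in the control DMSO libraries, 37.7 and 36.9 with sgUTX_2 and 50.5 and 46.0 with sgUTX_4. In SGC0946 it was 8.38 and 7.81 CPM in control cells, 10.3 and 8.29 with sgUTX_2 and 9.12 and 11.1 with sgUTX_4. The 4 sgUTX DMSO libraries therefore stood above all 8 others, which lay between 6.35 and 11.1 CPM. The log2 fold change of sgUTX against sgLuc in DMSO was 2.74 (SE 0.16, edgeR adjusted p = 2.11e-12, 4 libraries against 2), a 6.69-fold higher level. In sgUTX cells it fell with SGC0946, at -2.14 on the log2 scale (SE 0.11, adjusted p = 9.06e-13), whereas in control cells the log2 fold change was 0.34 with a 95% interval of -0.06 to 0.74, which did not pass the threshold of 0.05 on the adjusted p (0.151). With the inhibitor present the genotypes differed by 0.26 (interval -0.06 to 0.58, adjusted p = 0.155), a call that was made when libraries were scaled by total count alone (0.44, adjusted p = 0.018).

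FOS and JUN, which join as the classical AP-1 pair, showed the reverse: both were highest in control cells with SGC0946 and low in all sgUTX libraries. FOS was at 32.4 and 29.8 CPM in control DMSO libraries and 57.7 and 71.2 in control SGC0946 libraries. With the UTX guides FOS was at 8.54, 7.40, 8.70 and 8.20 CPM in DMSO and 8.55, 5.62, 5.83 and 4.39 in SGC0946. No sgUTX library reached the lowest control library of either treatment, and the sgUTX libraries of the treatments overlapped. The log2 fold change of FOS for sgUTX against sgLuc was -1.93 in DMSO (SE 0.16, adjusted p = 1.81e-08) and -3.39 in SGC0946 (SE 0.15, adjusted p = 8.00e-12), and SGC0946 raised it by 1.05 in control cells (SE 0.17, adjusted p = 7.18e-05). Its fall in sgUTX cells was small, at -0.42 (SE 0.16, adjusted p = 0.0487). That call lay close to the threshold, and it was lost on leaving out any of 6 of the 8 libraries. These were replicate 1 of sgUTX_2 DMSO (adjusted p = 0.116), replicates 1 and 2 of sgUTX_4 DMSO (0.105 and 0.0929), replicate 2 of sgUTX_2 SGC0946 (0.128) and replicates 1 and 2 of sgUTX_4 SGC0946 (0.107 and 0.123). The log2 fold change in these 6 runs ran from -0.42 to -0.29. The call was also lost with sgUTX_2 alone (-0.17, adjusted p = 0.524) and with scaling by library size (0.0551).

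JUN was at 13.7 and 12.2 CPM in control DMSO libraries and 58.5 and 66.6 in control SGC0946 libraries. In sgUTX cells JUN was at 3.93, 5.26, 4.41 and 2.91 CPM in DMSO and at 7.39, 5.99, 6.11 and 4.75 in SGC0946. The control SGC0946 libraries stood far above the rest, and each sgUTX library stood below both control DMSO libraries. In control cells JUN rose 4.82-fold with SGC0946 (log2 2.27, SE 0.17, adjusted p = 1.21e-09), and in sgUTX cells its log2 fold change was 0.55 (SE 0.16, adjusted p = 0.00942), the one gene of the 10 that rose in those cells. Against sgLuc it was lower with the UTX guides by -1.64 in DMSO (SE 0.18, adjusted p = 8.41e-08) and by -3.36 in SGC0946 (SE 0.14, adjusted p = 5.93e-14), a 10.3-fold difference.

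JUNB and JUND, the other AP-1 members of the JUN family, moved little in size but changed direction with genotype. JUNB was at 147 and 153 CPM in control DMSO libraries and 195 and 203 in control SGC0946 libraries, and with the UTX guides at 181, 174, 186 and 181 CPM in DMSO and 141, 131, 120.2 and 122 in SGC0946. JUND was at 127 and 150 CPM, then 194 and 231, in control cells, and with the UTX guides at 228, 203, 174 and 194 CPM in DMSO and 130.3, 115, 113 and 106 in SGC0946. For both genes control cells were higher with the inhibitor than without it, sgUTX cells were lower with it, and within each genotype the treatments did not overlap. With SGC0946 the log2 value of JUNB moved by 0.41 in control cells (SE 0.075, adjusted p = 9.61e-05) and by -0.49 in sgUTX cells (SE 0.053, adjusted p = 1.31e-07). The change of JUND was 0.62 (SE 0.13, adjusted p = 0.00109) and -0.78 (SE 0.090, adjusted p = 1.11e-05). Against sgLuc, the UTX guides had higher JUNB and JUND in DMSO (0.26, SE 0.065, and 0.53, SE 0.11) and lower in SGC0946 (-0.63, SE 0.063, and -0.87, SE 0.11), all 4 past the threshold. JUNB shares 14.2% of its exonic bases with HOOK2 on the opposite strand, which had 2759 counts over the 12 libraries against 36548 for JUNB, and the kit does not mark strand.

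**Figure D1:**
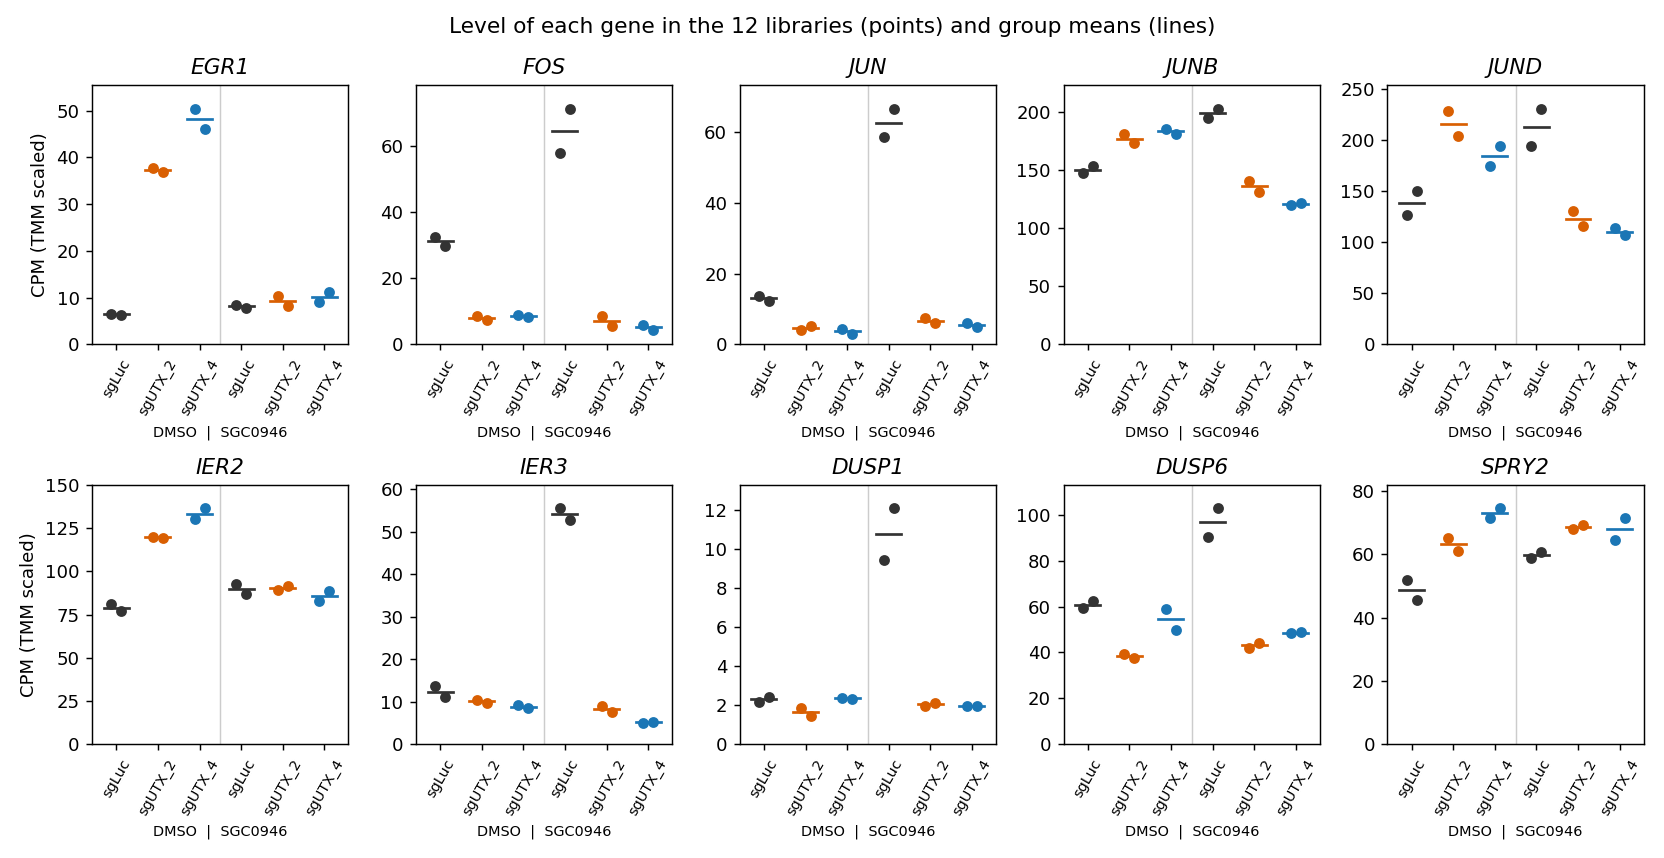
Level of each of the 10 genes in TMM-scaled CPM on a linear axis from 0, by guide and treatment; points are libraries and lines are means of 2. EGR1 is high only in the 4 sgUTX DMSO libraries (36.9 to 50.5 CPM), while FOS, JUN, JUNB, IER3, DUSP1 and DUSP6 are highest in the 2 control SGC0946 libraries.

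IER2 and IER3, small proteins named for their immediate early response, parted in the same way as EGR1 and JUN. IER2, a nuclear regulator, was at 81.0 and 77.0 CPM in control DMSO libraries and 92.6 and 87.2 in control SGC0946 libraries, and with the UTX guides at 120.0, 119, 130.5 and 137 CPM in DMSO and 89.4, 91.4, 82.7 and 88.6 in SGC0946. Its 4 sgUTX DMSO libraries were again the highest, and in SGC0946 the genotypes overlapped. In DMSO IER2 was higher with the UTX guides by 0.68 on the log2 scale (SE 0.070, adjusted p = 1.62e-08) and fell with SGC0946 in those cells by -0.52 (SE 0.055, adjusted p = 8.02e-08). In control cells the change with SGC0946 was 0.19 (interval 0.02 to 0.35, adjusted p = 0.0574), which passed the threshold with DESeq2 (adjusted p = 0.0425), with scaling by library size (0.0082), without the filter (0.0315) and in the model of 6 groups (0.0213).

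IER3, a stress-induced regulator of cell survival, was at 13.6 and 11.1 CPM in control DMSO libraries and 55.5 and 52.9 in control SGC0946 libraries. With the UTX guides it was at 10.5, 9.68, 9.25 and 8.37 CPM in DMSO and 9.04, 7.43, 4.98 and 5.26 in SGC0946. The control SGC0946 libraries were the only ones above 13.6 CPM. IER3 rose with SGC0946 in control cells by 2.13 (SE 0.19, adjusted p = 4.51e-08), and in SGC0946 the UTX guides had 8.01-fold less of it (log2 fold change -3.0, SE 0.15, adjusted p = 1.50e-11). Its fall in sgUTX cells, -0.48 (SE 0.15, adjusted p = 0.0187), was lost without replicate 1 of sgUTX_2 DMSO (adjusted p = 0.0645), without replicate 2 of sgUTX_4 SGC0946 (0.0573) and with sgUTX_2 alone (0.112). In DMSO the genotypes differed by -0.39 (interval -0.77 to -0.01, adjusted p = 0.0691), which passed in the model of 6 groups (0.00468) and with sgUTX_4 alone (0.00328).

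Among the feedback regulators, both phosphatases rose with the inhibitor in control cells, neither passed the test in sgUTX cells, and the difference of the responses, given further on, passed for each. DUSP1, a nuclear phosphatase that acts mainly on p38 and JNK, was at 2.18 and 2.42 CPM in control DMSO libraries and 9.41 and 12.1 in control SGC0946 libraries. With the UTX guides it was at 1.87, 1.45, 2.37 and 2.32 CPM in DMSO and 1.96, 2.09, 1.93 and 1.94 in SGC0946. All libraries but the 2 of control cells with the inhibitor lay at or below 2.42 CPM, and DUSP1 was the least counted of the 10, with 765 counts over the 12 libraries. SGC0946 raised it in control cells by 2.23 (SE 0.25, adjusted p = 1.63e-07), and in SGC0946 the UTX guides were lower by -2.44 (SE 0.20, adjusted p = 4.62e-10). In sgUTX cells the log2 fold change was 0.0014 (interval -0.40 to 0.41), and in DMSO the genotypes differed by -0.21 (interval -0.74 to 0.32), an order that turned to 0.064 with scaling by library size.

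DUSP6, a cytoplasmic phosphatase specific for ERK and often read as a sign of ERK output, was at 59.3 and 62.4 CPM in control DMSO libraries and 90.5 and 103 in control SGC0946 libraries. Its level with the UTX guides was 39.4, 37.5, 59.1 and 49.8 CPM in DMSO and 42.0, 44.3, 48.3 and 49.0 in SGC0946. Every sgUTX library lay below both control libraries of its treatment. In SGC0946 the difference between genotypes was -1.08 (SE 0.15, adjusted p = 7.86e-05). SGC0946 raised DUSP6 in control cells by 0.67 (SE 0.18, adjusted p = 0.00946), a call that was lost without replicate 1 of control DMSO (adjusted p = 0.0625) or replicate 2 of control SGC0946 (0.0604). In DMSO the difference of -0.39 (interval -0.74 to -0.04) missed the threshold at an adjusted p of 0.050004. It passed with DESeq2 (0.0151), without ribosomal protein genes in the scaling (0.0493), without the filter (0.002), in the model of 6 groups (6.92e-06) and without replicate 1 of sgUTX_4 DMSO (-0.53, adjusted p = 0.000174), and by guide it was -0.66 for sgUTX_2 (adjusted p = 2.48e-08) and -0.16 for sgUTX_4 (0.0968). DUSP6 shares 40.5% of its exonic bases with an antisense gene that had 74 counts, against 12628.

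SPRY2, an inhibitor of receptor tyrosine kinase signalling to ERK, varied least. It was at 52.0 and 45.7 CPM in control DMSO libraries and 58.7 and 60.7 in control SGC0946 libraries, and with the UTX guides at 65.3, 61.2, 71.5 and 74.6 CPM in DMSO and 68.0, 69.3, 64.7 and 71.6 in SGC0946. Every sgUTX library lay above the 4 control libraries. SPRY2 was higher with the UTX guides by 0.48 in DMSO (SE 0.082, adjusted p = 2.51e-05) and by 0.20 in SGC0946 (SE 0.079, adjusted p = 0.0395). The second call was lost with DESeq2 (adjusted p = 0.113) and without replicate 1 (0.203) or 2 (0.104) of control SGC0946, replicate 2 of sgUTX_2 SGC0946 (0.0668) or replicate 2 of sgUTX_4 SGC0946 (0.0893). SGC0946 raised it in control cells by 0.29 (SE 0.093, adjusted p = 0.0135), which was lost without replicate 2 of control DMSO (0.178) or of control SGC0946 (0.0819), while in sgUTX cells the change was 0.0062 (interval -0.12 to 0.14).

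Put in order of group means, the 6 groups gave EGR1 the sequence sgLuc DMSO, sgLuc SGC0946, sgUTX_2 SGC0946, sgUTX_4 SGC0946, sgUTX_2 DMSO and sgUTX_4 DMSO from low to high, where sgUTX_2 SGC0946 overlapped its neighbours on either side. FOS, JUN, JUNB, IER3, DUSP1 and DUSP6 had control SGC0946 cells at the top, without overlap with the next group. FOS and JUN had control DMSO cells next and the 4 sgUTX groups below, each of those overlapping its neighbour. Compared per kilobase of exon in control DMSO cells, JUNB was the most abundant at 82.6 CPM per kb ± 2.32 (SD, n = 2), followed by JUND at 74.3 ± 8.79 and IER2 at 25.7 ± 0.923. EGR1 at 2.03 ± 0.011 and DUSP1 at 1.14 ± 0.086 were the lowest. In sgUTX DMSO cells EGR1 reached 13.6 CPM per kb ± 2.10 (SD, n = 4), above FOS at 2.54 ± 0.179 and JUN at 1.17 ± 0.276.

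Counted over the 10 genes, sgUTX against sgLuc in DMSO called 5 higher (EGR1, JUNB, JUND, IER2 and SPRY2) and 2 lower (FOS and JUN), where 28.7% of all tested genes were called higher and 32.3% lower. SGC0946 in control cells called 8 higher and 0 lower, all but EGR1 and IER2, against 24.7% and 24.2% of all genes. The 0 lower also held with DESeq2, and no gene of the 10 had a negative fold change there. SGC0946 in sgUTX cells called 1 higher (JUN) and 6 lower (EGR1, FOS, JUNB, JUND, IER2 and IER3), against 17.4% and 16.4%. With the inhibitor present, sgUTX against sgLuc called 7 lower and 1 higher (SPRY2), against 29.3% and 27.7%. The medians of the 10 log2 fold changes were 0.03, 0.64, -0.45 and -0.97 in these comparisons, where those of all genes lay between -0.01 and 0.01. The first and second comparisons share the control DMSO libraries, the first and the third the sgUTX DMSO libraries, the second and the last the control SGC0946 libraries, and the third and the last the sgUTX SGC0946 libraries, so their values are not independent of each other. In bulk RNA, fewer cells that express a gene and less RNA per cell cannot be told apart.

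**Figure D2:**
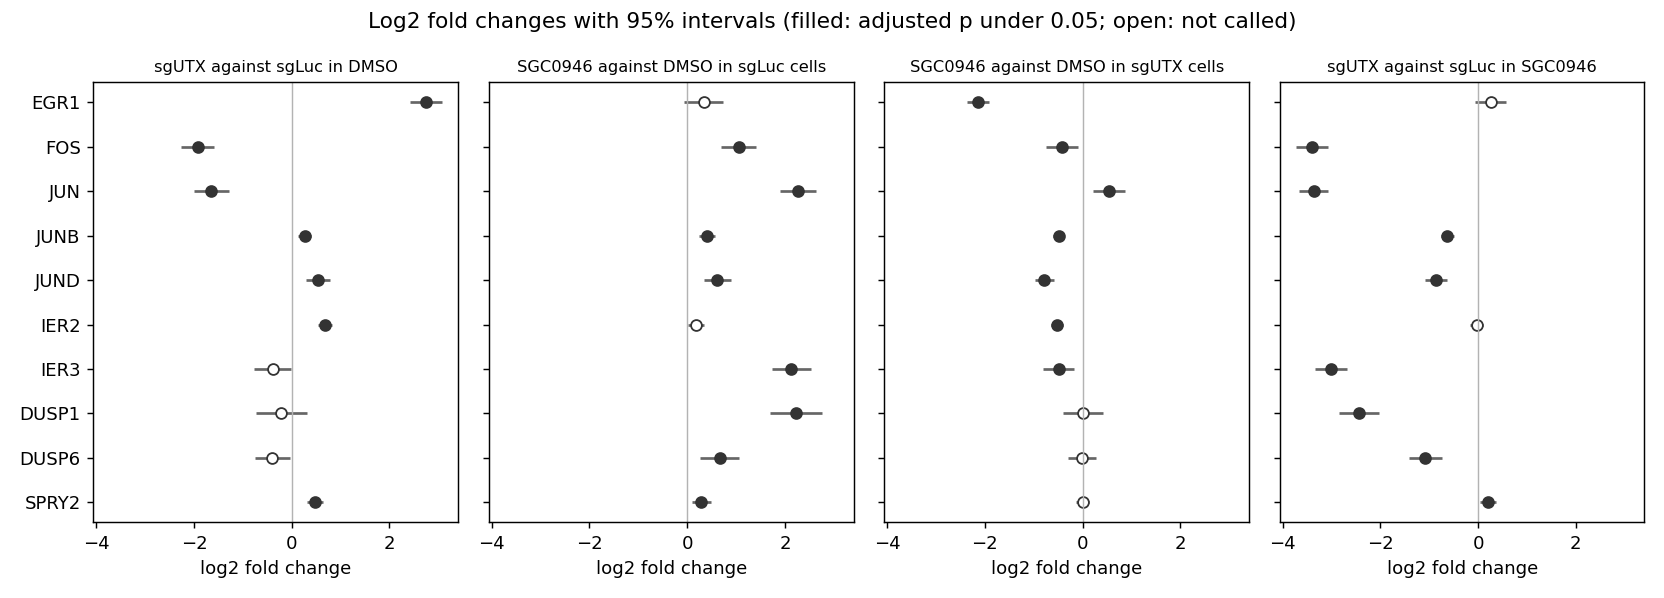
Log2 fold change of each gene (points) with its 95% interval (lines) in the 4 comparisons; filled points passed an adjusted p of 0.05. EGR1 runs from 2.74 in the first panel to -2.14 in the third, and FOS, JUN and IER3 lie at or below -3.0 in the fourth.

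The response to SGC0946 itself differed between the genotypes for 9 of the 10 genes, all 9 being less raised or more lowered in sgUTX cells, where 16.5% of all tested genes were called lower in that difference and 18.3% higher. The difference, as the sgUTX minus the sgLuc log2 fold change, was -2.61 for IER3 (SE 0.24, adjusted p = 2.43e-07), -2.48 for EGR1 (SE 0.22, adjusted p = 2.33e-08) and -2.23 for DUSP1 (SE 0.32, adjusted p = 1.27e-05). For JUN it was -1.72 (SE 0.23), for FOS -1.47 (SE 0.23), for JUND -1.40 (SE 0.16), for JUNB -0.89 (SE 0.091) and for IER2 -0.71 (SE 0.096), with adjusted p from 1.16e-07 (JUNB) to 0.000112 (FOS). The value for EGR1 came from a fall in sgUTX cells, and those for IER3, DUSP1 and JUN mostly from a rise in control cells. DUSP6 had a difference of -0.69 (SE 0.22, adjusted p = 0.0333). That call was lost without either replicate of control DMSO (0.114 and 0.0842), replicate 2 of sgUTX_4 DMSO (0.058), replicate 2 of control SGC0946 (0.118) or replicates 1 and 2 of sgUTX_2 SGC0946 (0.0659 and 0.0626). SPRY2 had -0.28 (interval -0.52 to -0.05, adjusted p = 0.0561), which passed without replicate 1 of control DMSO (0.035), without replicate 2 of sgUTX_2 DMSO (0.018) and with DESeq2 (0.0419), scaling by library size (0.0172), no filter (0.0138), the model of 6 groups (0.0181) or sgUTX_4 alone (0.00536).

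**Figure D3:**
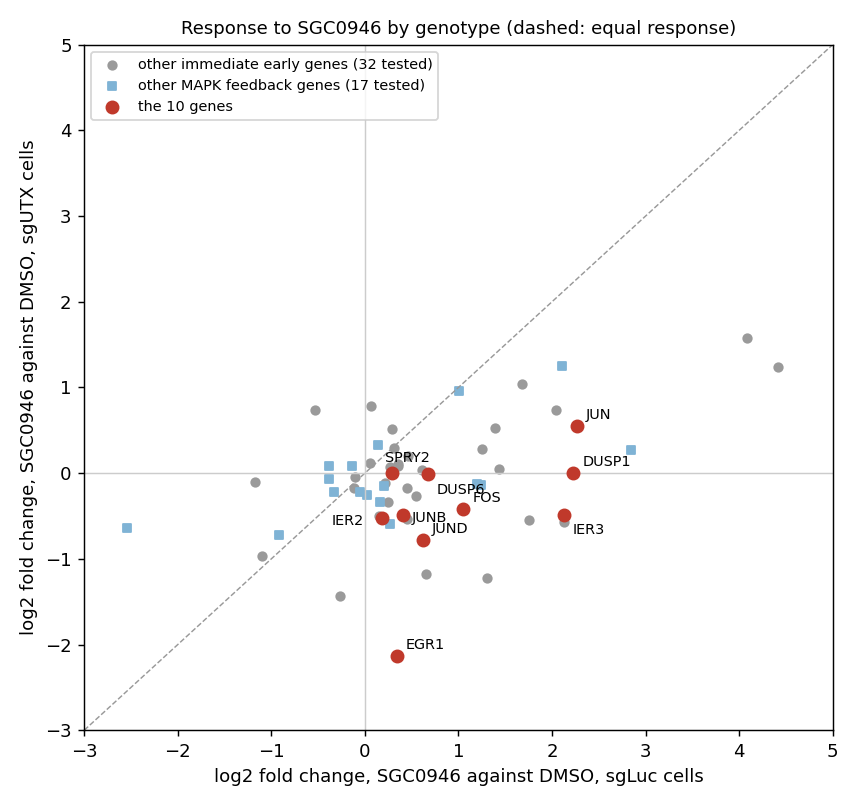
Log2 fold change with SGC0946 in sgLuc cells (x axis) against that in sgUTX cells (y axis) for the 10 genes (red), 32 other immediate early genes (grey) and 17 other MAPK feedback genes (blue); the dashed line marks an equal response. All 10 red points lie below the line, EGR1 by 2.48 and IER3 by 2.61.

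The guides were compared with each other in a model of 6 groups. In DMSO sgUTX_4 was higher than sgUTX_2 for EGR1 (log2 fold change 0.37, SE 0.10, adjusted p = 0.0314) and DUSP6 (0.50, SE 0.083, adjusted p = 0.000303), 2 higher and 0 lower of the 10, where 1.72% of all genes were called higher and 1.77% lower. The call for EGR1 was lost with DESeq2 (adjusted p = 0.143), without replicate 1 (0.0808) or 2 (0.151) of sgUTX_2 DMSO and without replicate 1 of sgUTX_4 DMSO (0.457), and that for DUSP6 without the last (0.0641). DESeq2 also gave 0 lower. JUND, at -0.23, had an unadjusted edgeR p of 0.0414 and passed without the filter (adjusted p = 0.0171). SPRY2 (0.21) and IER2 (0.16), also not called, had smaller unadjusted p, at 0.00852 and 0.0184. In SGC0946 IER3 was lower with sgUTX_4 (-0.68, SE 0.15, adjusted p = 0.00927), 1 lower and 0 higher, where 1.61% were called higher and 1.4% lower. DESeq2 also gave 0 higher. DUSP6, at 0.17, had an unadjusted edgeR p of 0.0443. JUNB (-0.17) and FOS (-0.47), also not called, had smaller unadjusted p, at 0.0102 and 0.0253. The call for IER3 was lost without replicate 1 of sgUTX_2 (log2 fold change -0.53) or of sgUTX_4 (-0.64). FOS was called as well without replicate 2 of sgUTX_2 (-0.75). Against sgLuc in DMSO EGR1 was higher with each guide alone, by 2.55 with sgUTX_2 and 2.92 with sgUTX_4, while the KDM6A count was lower with the one and higher with the other.

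Most of the other immediate early genes that changed were lower in sgUTX cells, where EGR1 was higher. Of 37 listed, 32 were tested. In DMSO 17 were lower and 3 higher with the UTX guides (median log2 fold change -0.65, all genes -0.01), against 32.3% and 28.7% of all genes, and scaling by library size gave 9 higher. Leaving out replicate 1 of control DMSO gave 1 higher. BTG2, an antiproliferative factor, fell from 37.4 CPM ± 1.39 (SD, n = 2) to 7.15 ± 0.735 (n = 4), a log2 fold change of -2.39 (adjusted p = 6.05e-15). KLF2, a transcription factor, was at -1.94, the small Maf protein MAFF at -1.64 and the mRNA-decay factor ZFP36L1 at -1.42, each past the threshold. In SGC0946 25 were lower and 2 higher (median -1.25, all genes 0.01), against 29.3% and 27.7% of all genes. DESeq2 and the test without the filter gave 1 higher and scaling by library size 4, and there was 1 without replicate 2 of control SGC0946 or without replicate 1 or 2 of sgUTX_2 SGC0946. KLF2 was at -3.77, the kinase SGK1 at -3.54, BTG2 at -3.25 and EGR2, a close relative of EGR1, at -2.98.

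SGC0946 in control cells raised 16 of these 32 genes and lowered 2 (median 0.40, all genes 0.00), against 24.7% and 24.2% of all genes. SGK1 rose from 4.87 CPM ± 0.384 (SD, n = 2) to 82.3 ± 6.29 (n = 2), a log2 fold change of 4.08 (adjusted p = 2.05e-15), TRIB1, a pseudokinase, by 2.13, KLF4, a transcription factor of monocytes, by 2.04 and EGR2 by 1.75. In sgUTX cells the inhibitor raised 9 and lowered 9 (median 0.05), against 17.4% and 16.4%. SGK1 rose there by 1.58, whereas the nuclear receptor NR4A1 fell by 1.43, the stress factor ATF3 by 1.22 and KLF2 by 1.18 on the log2 scale. The responses differed for 18, with 16 lower and 2 higher in sgUTX cells (median -0.60, all genes 0.02), against 16.5% and 18.3% of all genes, led by TRIB1 at -2.70, ATF3 at -2.52, SGK1 at -2.50 and EGR2 at -2.30. EGR2 was at 2.09 CPM ± 1.35 (n = 2) in control DMSO cells and 1.34 ± 0.219 (n = 4) in sgUTX DMSO cells, groups that overlapped, where EGR1 did not overlap. Its level in control SGC0946 cells was 7.22 CPM ± 1.08 (n = 2).

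The other MAPK feedback genes, further DUSP, Sprouty and SPRED genes and related targets of ERK, held called genes of both directions. Of 17 tested, 6 were higher and 5 lower with the UTX guides in DMSO (median 0.20), shares close to the 28.7% and 32.3% of all genes. PHLDA1, an ERK-induced protein, was at -2.58, DUSP10, a phosphatase of p38 and JNK, at -1.57 and DUSP2, a nuclear phosphatase, at 1.21. The level of PHLDA1 was low, at 2.89 CPM ± 0.834 (SD, n = 2) in control DMSO cells and 0.46 ± 0.247 (n = 4, 38 counts) in sgUTX DMSO cells. Scaling by library size gave 3 lower. In SGC0946 6 were lower and 3 higher (median -0.02), against 29.3% and 27.7% of all genes, with PHLDA1 at -3.44, the ERK phosphatase DUSP5 at -1.37, DUSP10 at -1.35 and ERRFI1, an inhibitor of the EGF receptor, at -1.16. Scaling by library size gave 6 higher, and leaving out replicate 2 of control SGC0946 gave 1. In control cells SGC0946 raised 5 and lowered 3 (median 0.14), against 24.7% and 24.2%, with PHLDA1 up by 2.11, ERRFI1 by 1.24 and DUSP5 by 1.20, and without replicate 1 of control DMSO or without either replicate of control SGC0946 it lowered 1. In sgUTX cells 3 rose and 5 fell (median -0.14), against 17.4% and 16.4%, among them PHLDA1 by 1.25, which was not called with sgUTX_2 alone (adjusted p = 0.0759), DUSP4, an ERK phosphatase, by 0.95, and DUSP7 at -0.72. The responses differed for 5, all lower in sgUTX cells, where 16.5% of all genes were called lower and 18.3% higher. In the model of 6 groups 2 were higher, and 1 was higher with sgUTX_2 alone, with sgUTX_4 alone and without replicate 1 of sgUTX_4 DMSO.

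The cascade from RAS through RAF and MEK to ERK carries the signal from receptors to the nucleus. Of its 21 genes, 10 were higher and 5 lower with the UTX guides in DMSO (median 0.12), against 28.7% and 32.3% of all genes, led by the small GTPase HRAS at 1.05, the kinase ERK1, encoded by MAPK3, at -0.95, the phosphatase SHP2, encoded by PTPN11, at 0.58 and the kinase RSK2, encoded by RPS6KA3, at 0.56. Scaling by library size, testing without the filter, or leaving out replicate 1 of control DMSO gave 3 lower. In SGC0946 3 were higher and 11 lower (median -0.16), against 27.7% and 29.3% of all genes, with MAPK3 at -0.85, the MEK1 gene MAP2K1 at -0.73 and the exchange factor SOS2 at -0.72. That count depended on scaling, since library size alone gave 8 higher and 5 lower, and leaving out replicate 2 of control SGC0946 gave 1 higher. SGC0946 raised 7 and lowered 5 in control cells (median 0.06), against 24.7% and 24.2% of all genes, with RPS6KA3 up by 0.93 and the RAS inactivator RASA1 at -0.56. Without replicate 1 of control SGC0946 4 were higher and 3 lower, and without replicate 2 of control DMSO 2 were lower. In sgUTX cells 1 rose and 12 fell (median -0.19), against 17.4% and 16.4% of all genes, among them RASA1 at -0.69, the scaffold KSR1 at -0.62 and BRAF at -0.43. The 1 higher became 0 without the filter, with sgUTX_2 alone, without replicate 2 of sgUTX_4 DMSO or without either replicate of sgUTX_4 SGC0946. The difference of the responses was lower in sgUTX cells for 9 and higher for 2 (median -0.17), against 16.5% and 18.3% of all genes, with RPS6KA3 at -1.0 and MAP2K1 at -0.85. The count of 2 higher fell to 0 with scaling by library size and without the filter. It fell to 1 with DESeq2, with sgUTX_4 alone and with a replicate block. It also fell on leaving out any single library but replicate 1 of sgUTX_4 DMSO or replicate 2 of sgUTX_2 SGC0946.

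Genes that act above or beside the 10 were also counted, and their counts stand against the same 28.7% higher and 32.3% lower of all genes in DMSO and 27.7% and 29.3% in SGC0946. Among 9 transcription factors upstream of immediate early genes, 6 were higher and 2 lower with the UTX guides in DMSO (median 0.31), including the SRF cofactors MRTFB at 0.61 and MRTFA at -0.52 and the SRF partner ELK4 at 0.43, and in SGC0946 2 were higher and 2 lower (median -0.07), with 1 and 0 higher without replicate 1 and replicate 2 of control SGC0946. Among 9 tested partners of AP-1 proteins, 4 were higher and 4 lower in DMSO (median 0.37), with BATF3 at 1.81, MAFG at 0.94 and JDP2 at 0.77, and 3 were higher and 1 lower in SGC0946. Scaling by library size gave 2 lower in the first and 5 higher in the second, and DESeq2 gave 2 lower in the second. Without replicate 2 of control DMSO 2 were lower in the first, and without replicate 2 of control SGC0946 1 was higher in the second. Of 13 genes of the JNK and p38 cascades, 3 were higher and 3 lower in DMSO (median -0.03) and 1 higher and 7 lower in SGC0946 (median -0.25), the latter including the p38 activator MAP2K6 at -1.90. With scaling by library size these became 9 higher in DMSO, and 4 higher and 4 lower in SGC0946, and with DESeq2, or without replicate 2 of control SGC0946, the count higher in SGC0946 was 0. In DMSO the count higher was 6 without the filter and 5 in the model of 6 groups, and it fell without replicate 2 of control DMSO.

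**Figure D4:**
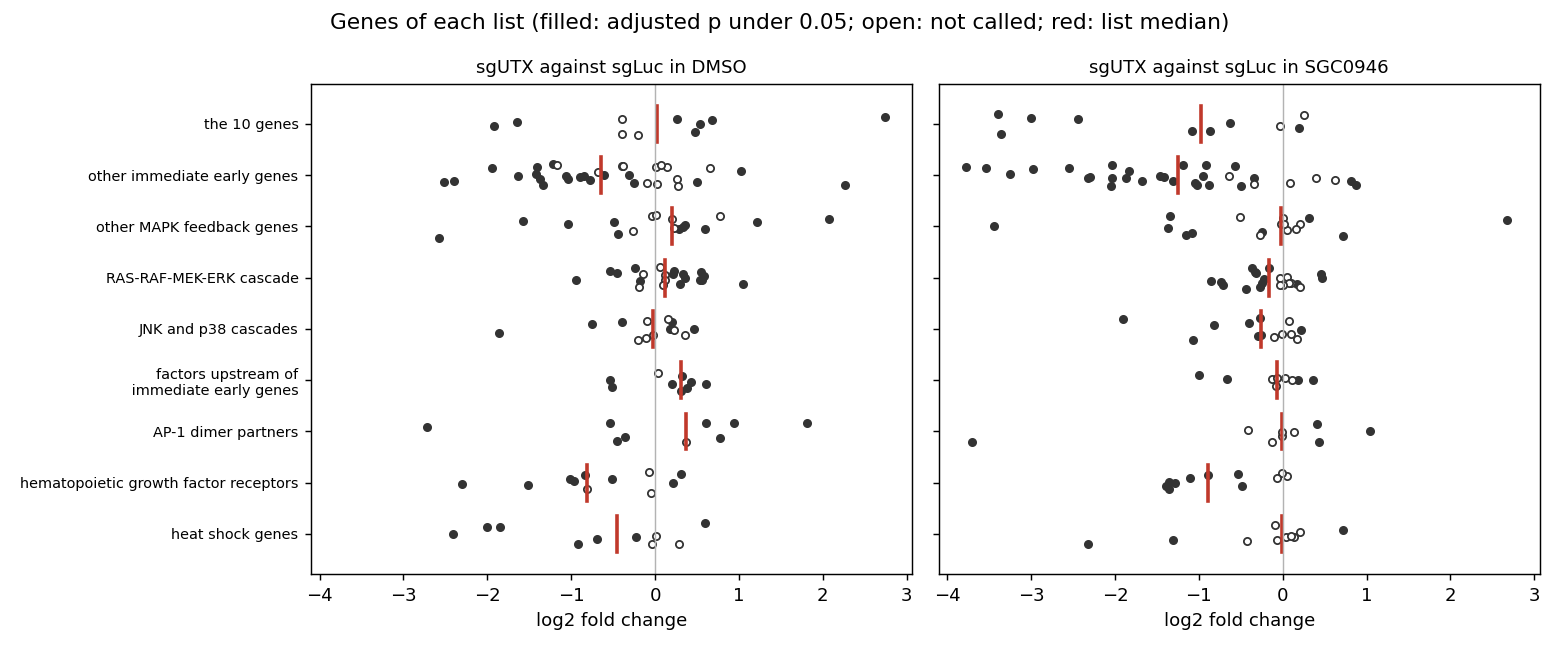
Log2 fold change of sgUTX against sgLuc in DMSO (left) and in SGC0946 (right) for every tested gene of each list (points; filled where the adjusted p passed 0.05) with the list median (red line). The other immediate early genes have medians of -0.65 and -1.25, and the 10 genes medians of 0.03 and -0.97.

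Genes with the most similar pattern over the 12 libraries were found for the 6 members whose group means spanned at least 1 on the log2 scale, by the root mean square difference of log2 CPM after centring each gene on its mean. Among 12754 genes, those nearest to EGR1 were TRIB3 (0.49), CYP19A1 (0.55) and SESN2 (0.59), where the median gene differed by 1.15. TRIB3 was at 191 CPM ± 11.3 (SD, n = 2) in control DMSO cells, 515 ± 32.3 (n = 4) in sgUTX DMSO cells, 153 ± 0.310 (n = 2) in control SGC0946 cells and 215 ± 10.1 (n = 4) in sgUTX SGC0946 cells. Nearest to JUN were TREM1 (0.26), C3 (0.29) and RGS2 (0.31), and to FOS IFIT1 (0.34), FTH1 (0.35), which has many near-identical pseudogene copies, and RHOC (0.35). IER3 lay nearest to IL1B (0.24), CDKN1A (0.25) and EGR2 (0.32), DUSP1 to DTX4 (0.20), CD53 (0.22) and BCL2A1 (0.28), and DUSP6 to S100A11 (0.095), UBE2F (0.11) and FRAT1 (0.12). Among the 10 themselves the closest pair was JUNB and JUND (0.17), then IER2 and SPRY2 (0.22), and the farthest were EGR1 and JUN (2.27). The group means of the genes in both closest pairs spanned less than 1 on the log2 scale, from 0.58 (SPRY2) to 0.97 (JUND). Genes that vary little differ little by this measure. These distances are descriptions over libraries that share 6 groups.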

How the data were processed

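Paired-end RNA-seq libraries were made with a NEBNext Ultra RNA kit from 12 samples, per the labels' protocols; STAR 2.5.1b and the build hg19 are named in the submitters' processing notes. The deposited table holds raw counts per gene; the counting tool and its strand setting are not named by any source used here. All 58735 Ensembl identifiers matched GENCODE release 29, which was used for symbols, exon lengths and overlaps only. The promoter windows are RefSeq's on GRCh38.p14, and no coordinate of the count table was used.

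Counts were tested with edgeR 4.0.16 (R 4.3.3, limma 3.58.1): filterByExpr, TMM scaling, robust quasi-likelihood F test over all 15060 genes kept, Benjamini-Hochberg adjustment, calls at an adjusted p under 0.05. The main model had 4 groups, both UTX guides counting as replicates of 1 group (8 residual degrees of freedom), and the guides were compared in a model of 6 groups (6 residual degrees of freedom). SE is the log2 fold change divided by the square root of F. CPM are TMM-scaled, per kilobase over merged exons. The precision is set by 2 libraries per group and by counts from 765 (DUSP1) to 37263 (JUND) over the 12 libraries. The procedure was tested on simulated data.

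The text names the 10 genes; of 8 lists, up to 4 called genes with the largest change at a mean of at least 1 CPM, the text giving a part of these; and the 3 nearest genes of each wide-ranging member. Members and lists were chosen with earlier results of these data known. Alternatives were DESeq2 1.42.0, library size scaling, TMM without 89 ribosomal protein genes, no filter, 6 groups with guides averaged, each guide alone, a replicate block and leaving out each library. Replicates were not identical libraries, and no library was left out. The result of 1 gene of the lists is not reported here.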

Additional observations from a re-analysis of the deposited data

Results flagged for a closer look

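The difference of the response to SGC0946 between the genotypes, tested as an interaction, passed the threshold for 9 of the 10 genes. All 9 were lower, where 16.5% of all tested genes were called lower in that difference and 18.3% higher. As the sgUTX minus the sgLuc log2 fold change the difference was -2.61 for IER3, -2.48 for EGR1, -2.23 for DUSP1, -1.72 for JUN, -1.47 for FOS, -1.40 for JUND, -0.89 for JUNB, -0.71 for IER2 and -0.69 for DUSP6. Of the named other immediate early genes, it was -2.70 for TRIB1, -2.52 for ATF3, -2.50 for SGK1 and -2.30 for EGR2. Among other MAPK feedback genes it was -2.58 for SPRY3, which averaged 1.23 CPM and lies in a region that chromosomes X and Y share, so that its counts are uncertain, -1.38 for ERRFI1, -1.33 for DUSP5 and -0.86 for SPRY4. In the RAS to ERK cascade it was -1.0 for RPS6KA3, -0.85 for MAP2K1 and -0.59 for HRAS. The call for DUSP6 was lost on leaving out any of several single libraries, as given above. The value for HRAS was not called without replicate 1 of control DMSO (adjusted p = 0.117) or of control SGC0946 (0.0894). Of 20 groups of 4 sgUTX libraries, 1 for each of the 10 genes and each treatment, 0 held a library that stood apart by Dixon's 95% criterion. Each of these groups held 2 libraries of each guide, and a difference between guides can hide a single library from this criterion. The control groups of 2 libraries could not be tested in this way.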

How the results depend on the processing

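Over the 7 comparisons no called gene of the 10 changed direction under any alternative run; the calls lost or gained are given with the genes. Of the values compared per gene, comparison and setting, 835 kept their direction and their side of the threshold, 33 were no longer called, 22 became called and 29 changed sign, all 29 for genes not called with the main settings. The cause of these changes was not tested. The sign changes were, for DUSP1 in DMSO, 0.064 (library size scaling) and 0.034 (sgUTX_4 alone). With SGC0946 in sgUTX cells, DUSP1 was at -0.0094 (DESeq2), -0.016 (no filter) and -0.28 (sgUTX_4 alone), DUSP6 at 0.0018 (6 groups) and 0.17 (sgUTX_2 alone), and SPRY2 at -0.0023 (DESeq2), -0.012 (no filter) and -0.10 (sgUTX_4 alone). IER2 between genotypes in SGC0946 was at 0.16 (library size scaling) and 0.0083 (sgUTX_2 alone). Leaving out each library in turn gave, with SGC0946 in sgUTX cells, -0.13 to 0.092 for DUSP1, -0.11 to 0.12 for DUSP6 and -0.043 to 0.052 for SPRY2, between genotypes in SGC0946 -0.071 to 0.013 for IER2, and between the guides -0.015 to 0.19 for FOS in DMSO, -0.030 to 0.29 for EGR1 in SGC0946 and -0.086 to 0.060 for SPRY2 in SGC0946.

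Of the 10 genes, 4 were lower with the UTX guides in DMSO in the model of 6 groups. In SGC0946 0 were higher with DESeq2 and 2 with library size scaling. Between the guides in DMSO, 1 was higher with DESeq2 and 1 was lower without the filter. Leaving out 1 library gave 0 to 1 higher between genotypes in SGC0946, 0 to 2 higher between the guides in DMSO and 0 to 2 lower between them in SGC0946, and over all genes 89 to 694 and 90 to 376 calls between the guides in DMSO and SGC0946.

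The replicate numbers did not pair the libraries: over 15 pairs of groups the correlation of same-numbered deviations ran from -0.203 to 0.106. Fitted with a replicate block, no call of the 10 genes changed, and DUSP1 with SGC0946 in sgUTX cells was at -0.00078. Depth limited DUSP1 most, with 67 counts in control DMSO libraries.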

Other observations

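Receptors for hematopoietic growth factors and cytokines, which feed the signals that induce immediate early genes, were counted as a further list. Of 11 tested, 6 were lower and 2 higher in DMSO (median log2 fold change -0.82), against 32.3% and 28.7% of all genes, and 8 lower and 0 higher in SGC0946 (median -0.89), against 29.3% and 27.7%. Scaling by library size gave 1 higher in SGC0946, and 1 was higher in DMSO without either replicate of control DMSO or of sgUTX_4 DMSO. CSF1R, the receptor of the macrophage growth factor M-CSF, was at -2.31 in DMSO and -1.39 in SGC0946, and IL3RA, a chain of the interleukin 3 receptor, at -1.51 and -1.36. SGC0946 raised 8 and lowered 2 in control cells, against 24.7% and 24.2%, with CSF1R up by 1.35, IL6R by 1.31 and CSF2RB by 1.31 and the receptor kinase FLT3 at -1.59. In sgUTX cells 6 rose and 2 fell, against 17.4% and 16.4%, with CSF1R up by 2.26 and FLT3 at -1.02.

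Heat shock genes, which stress also induces rapidly, were counted as another list. With the UTX guides in DMSO 6 of 10 were lower and 1 higher (median -0.46), against 32.3% and 28.7%, led by the inducible chaperone HSPA6 at -2.41. HSPA1B, which was at -1.84, has a near-identical copy, HSPA1A, so its counts are uncertain. The 1 higher became 2 with scaling by library size, and 0 without replicate 1 or 2 of control DMSO or replicate 2 of sgUTX_4 DMSO. In SGC0946 2 were lower, HSPA6 being at -2.32, and 1 higher, against 29.3% and 27.7%. SGC0946 raised 2 and lowered 2 of the 10 in control cells (median 0.04), against 24.7% and 24.2% of all genes. In sgUTX cells it raised 5 and lowered 1 (median 0.23), against 17.4% and 16.4%. HSPA6 rose with SGC0946 by 2.08 in control cells and by 2.17 in sgUTX cells, whereas HSPB1 was at -1.71 and -0.66.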
